A study of Mus musculus with 2 samples.

Results

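The genes described are 7 that Schwann cells express: Sox10, Egr2, Erbb3, Mbp, Pmp22, S100b and Cdh19. They were chosen by name, as 7 of the 21911 protein-coding genes of the GENCODE annotation, and each locus was taken as the gene body with 50 kb on either side on mm10. The data are DNase-seq of whole gastrocnemius, the large calf muscle, from male adult mice of strain B6CASTF1/J, an F1 cross, aged 18-20 months. DNase-seq marks accessible chromatin by the places where the enzyme DNase I cuts. There were 2 biological replicates of this 1 group and no second condition, so no test between conditions was possible. The replicates differed in their biosample label and shared 1 donor label, and the spread between them may therefore be technical. Both alleles of the F1 animals were read together.

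Schwann cells wrap the axons of peripheral nerves, and in muscle they run with the motor and sensory fibres and cap the neuromuscular junction. The transcription factor SOX10 holds their identity, and with it EGR2 turns on the myelin genes. Axons signal to them through neuregulin and the ERBB2-ERBB3 receptor pair. MBP and PMP22 are proteins of compact myelin, S100B is a calcium-binding protein and CDH19 a cadherin used as a marker of the lineage. Schwann cells are a minority of the nuclei in muscle.

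The deposited peak lists held 131398 peaks in replicate 1 and 91567 in replicate 2, with a median width of 200.0 bp in each, and the footprint lists 339656 and 234091 footprints. A footprint is a short protected stretch inside open chromatin, here 10 bp long at the median and called at a threshold of 0.01. Read totals are not given in the files used, so the depth of each library is unknown. The 7 loci held 99 peaks in replicate 1 and 93 in replicate 2. Of these, 21 and 18 lay at the start sites of the 7 genes (within 1000 bp), 18 and 21 at the promoter of a neighbouring gene, and 60 and 54 were distal. Peaks of the 2 replicates that overlapped were joined, which gave 123 regions, 62 of them found in both. Of the 81 distal regions, 31 were found in both.

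Sequences of 5 open regions, from 4 of the genes, are given because the values below refer to them. They show the nearest open region to Sox10 and its strongest region upstream, the strongest promoter peak of Egr2, an open region inside Erbb3, and the strongest distal region of S100b. Each is the stretch that a peak of both replicates covered, read from the plus strand of GRCm38.p6 (mm10), the C57BL/6J reference, 5′ to 3′. Capitals mark bases that lay in a footprint of both replicates. Intergenic means outside protein-coding genes, and the upstream Sox10 region lies over Gm10863, a gene that is not protein-coding.
Sox10, downstream, in an intron of Polr2f, chr15:79148661-79148860, plus strand: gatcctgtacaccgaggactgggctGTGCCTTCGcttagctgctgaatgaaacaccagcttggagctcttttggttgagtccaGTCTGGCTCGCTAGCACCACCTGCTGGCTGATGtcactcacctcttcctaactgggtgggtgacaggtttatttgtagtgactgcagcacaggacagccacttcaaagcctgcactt
Sox10, upstream, intergenic, chr15:79208381-79208540, plus strand: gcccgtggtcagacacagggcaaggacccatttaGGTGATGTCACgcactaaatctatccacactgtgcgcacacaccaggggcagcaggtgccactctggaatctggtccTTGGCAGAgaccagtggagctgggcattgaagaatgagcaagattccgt
Egr2, promoter, in an intron of transcripts from its first start sites, chr10:67537661-67537860, plus strand: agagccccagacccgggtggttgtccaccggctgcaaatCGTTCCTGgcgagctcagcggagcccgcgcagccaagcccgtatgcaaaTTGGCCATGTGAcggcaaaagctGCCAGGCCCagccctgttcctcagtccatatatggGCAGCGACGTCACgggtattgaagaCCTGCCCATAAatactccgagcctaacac
Erbb3, in an intron, chr10:128583761-128584000, plus strand: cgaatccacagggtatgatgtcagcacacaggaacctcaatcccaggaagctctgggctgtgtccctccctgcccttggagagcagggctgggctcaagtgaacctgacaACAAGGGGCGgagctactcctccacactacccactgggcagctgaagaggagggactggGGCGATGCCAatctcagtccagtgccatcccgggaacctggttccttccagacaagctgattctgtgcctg
S100b, in an intron, chr10:76258121-76258320, plus strand: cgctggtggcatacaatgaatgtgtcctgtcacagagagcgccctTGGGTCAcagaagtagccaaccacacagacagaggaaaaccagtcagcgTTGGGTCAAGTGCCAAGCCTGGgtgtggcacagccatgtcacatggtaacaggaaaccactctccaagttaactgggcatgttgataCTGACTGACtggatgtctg
Footprints of both replicates covered 53 of 200 bases at the Egr2 promoter, 42 of 200 downstream of Sox10, 38 of 200 in S100b, 20 of 240 in Erbb3 and 19 of 160 upstream of Sox10. GC content ran between 52.5% in the S100b region and 60.0% at the Egr2 promoter, which held 13 CpG dinucleotides against 3 or 4 in each of the others.

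Promoters were open at 5 of the 7 genes in each replicate, the same 5 in both: Egr2, Erbb3, Mbp, Pmp22 and S100b. Sox10 and Cdh19 had no promoter peak in either replicate. Over all protein-coding genes, replicate 1 gave an open promoter at 65.7%, replicate 2 at 63.6%, and 62.4% were open in both, so the count for the 7 genes lay near the background. In whole muscle, fewer cells of a type and less open chromatin per cell cannot be told apart. The peak signal given below is the authors' value, on a scale the sources do not state, and a percentile ranks a promoter among all genes that had a promoter peak.

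Taken over all start sites of a gene, Egr2, the regulator of myelination, had the strongest promoter signal of the 7. It read 4.42 in replicate 1 and 4.35 in replicate 2, or percentiles 64.3 and 60.4. Pmp22 followed with 2.34 and 3.01, percentiles 39.5 and 44.9. These were the only promoters of the 7 with a signal over 2 in either replicate, and the median of all genes with a promoter peak was 3.17 and 3.42. Mbp reached 0.964 and 1.07, percentiles 19.6 and 17.7. Erbb3 reached 0.650 and 0.794, percentiles 13.6 and 12.5. S100b was lowest, at 0.640 and 0.565, percentiles 13.4 and 7.41. Means were 4.39 ± 0.0434 for Egr2, 2.67 ± 0.472 for Pmp22, 1.02 ± 0.0770 for Mbp, 0.722 ± 0.102 for Erbb3 and 0.602 ± 0.0530 for S100b (SD, n = 2). The signal scale may differ between replicates, so the SD may include a difference in scale. The order of the 5 genes was the same within each replicate, although Erbb3 and S100b came close in replicate 1. By percentile these 2 genes were not apart across replicates, as S100b at 13.4 in replicate 1 lay above Erbb3 at 12.5 in replicate 2.

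**Figure D1:**
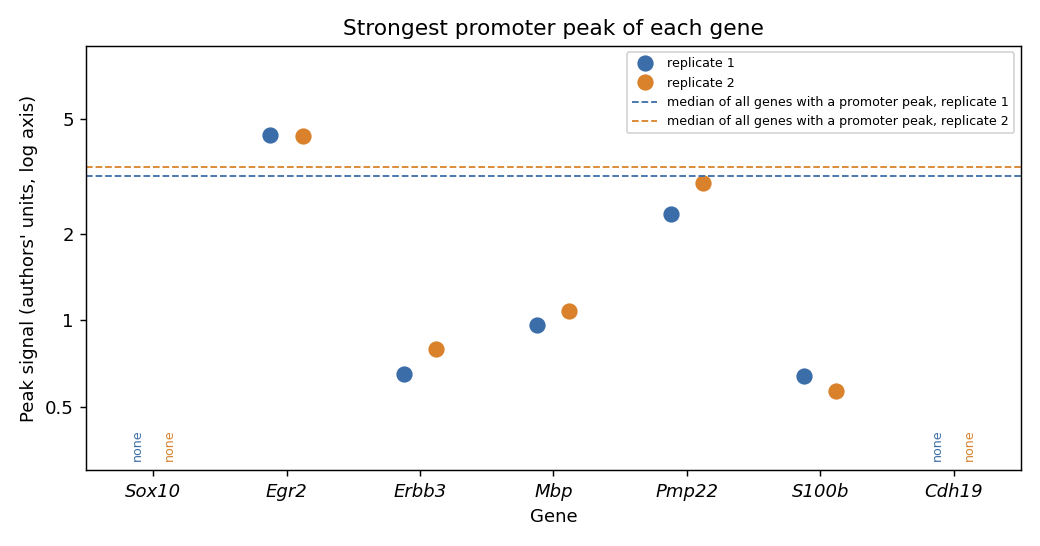
Strongest promoter peak of each gene (authors' signal, log axis) in replicate 1 (blue) and replicate 2 (orange), with dashed lines at the median of all genes with a promoter peak. Egr2 sits above both lines at 4.42 and 4.35, the other open promoters lie below them, and Sox10 and Cdh19 have none.

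The deposited list of bases with a false discovery rate under 0.05 gave a second reading of the same libraries. Over the promoter windows, it covered 67.8% and 39.2% of the bases at Egr2, 62.1% and 58.5% at Pmp22 and 35.1% and 40.6% at Erbb3. Coverage was 15.7% and 6.15% at S100b and 8.45% and 7.03% at Mbp. The windows of all start sites of a gene were joined, which gave 2001 bases at S100b and 4128 at Mbp. Those of Mbp include its second start-site cluster, which had no peak. At Sox10 and Cdh19 it covered 0 bases in either replicate. Such a base was found in the promoter of 66.7% of all genes in replicate 1 and 64.7% in replicate 2. S100b was the nearest to the limit, with a lowest value of 0.00660 in replicate 2, and the smaller, stricter peak list of that replicate held no S100b promoter peak.

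CpG content at the start sites differed widely among the 7 genes. Observed over expected CpG within 500 bp of a start site was 0.166 and 0.326 at the start-site clusters of Sox10, 0.207 at Cdh19 and 0.169 at S100b. It was 0.665 to 0.730 at Egr2, 0.600 at Erbb3, 0.600 at the first cluster of Mbp and 0.457 at its second, against a median of 0.561 over all genes. Pmp22 spanned 0.195 at its first start site to 0.661 at its last. Genes below 0.4 had a promoter peak in both replicates in 23.5% of cases, and genes at or above 0.4 in 87.8%. S100b and the first start site of Pmp22 were open in both replicates at values below 0.4, and Sox10 and Cdh19 were not. The second cluster of Mbp was above 0.4 and had no peak in either replicate. The part of CpG content in the result was not tested.

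Sox10 (chr15:79154908-79165240, minus strand) had no peak inside its body in either replicate. The peak nearest its first start site lay 16.4 kb away in both replicates, in an intron of Polr2f, a subunit gene of RNA polymerase II, with a signal of 3.14 and 2.42. It is the first sequence printed above, and its middle lay 15.7 kb from the second, inner start-site cluster. Further downstream, a region 32.8 kb away at chr15:79131541-79131760 was the strongest distal one, with 5.73 and 4.80, percentiles 97.4 and 94.3 among all peaks, and 6 footprints in each replicate. It lay in exons of non-coding transcripts of Micall1 and 1700088E04Rik. On the upstream side, 3 weaker regions were found in both replicates. They lay at 30.4 kb with 0.731 and 0.604, at 43.2 kb with 1.67 and 1.05, and at 44.1 kb with 1.00 and 0.688. In all, the Sox10 locus had 11 distal peaks in replicate 1 and 7 in replicate 2, all 7 of which were found in replicate 1. For 1 region alone, the one 30.4 kb upstream, Sox10 was the gene with the nearest start site.

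Egr2 (chr10:67535475-67542188, plus strand) had its open chromatin mostly within the promoter windows of its 6 start sites. Joined, these windows covered 4924 bases, so peaks in much of its 6.7 kb body were classed as promoter and not as distal. Egr2 had 10 promoter peaks in replicate 1 and 7 in replicate 2, and 7 promoter regions were found in both. The strongest ended 8 bp before a cluster of start sites at 67537869-67537930, which serves 4 of its transcripts, and the next, at 67537381-67537600, read 3.68 and 4.04. The first start-site cluster, at 67535475-67535583, had a strongest peak of 1.45 and 1.39. Distal signal was low: a region over the coding exon read 0.249 and 0.408, and a peak of 0.244 lay 27.8 kb away in replicate 1 alone. The open region of 3.03 and 2.87 at 10.6 kb belonged to the promoter of Ado, a thiol dioxygenase gene.

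Erbb3 (chr10:128567523-128589652, minus strand) had a weak promoter among strong neighbours. At its start site a peak of 0.452 was found in replicate 1 and, 148 bp upstream, one of 0.755 in replicate 2. The promoter region found in both lay 0.8 kb upstream. Within the body, 1 distal region was open in both, 5.8 kb from the start site, with 1.02 and 1.17 and 3 footprints in each replicate. Upstream, a region at 23.2 kb read 1.52 and 1.24. The strongest distal region lay 53.2 kb downstream between protein-coding genes, over the non-coding Gm29585, with 4.29 and 4.26. The promoters of neighbouring genes in the same locus were higher than that of Erbb3 in both replicates: Pa2g4 read 7.54 and 8.32, Esyt1 7.13 and 6.02, and Rps26 6.12 and 2.84.

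Mbp (chr18:82475146-82585637, plus strand) has start sites far apart. The first cluster, of 3 sites at 82475146-82475162, lay under a peak in both replicates. The second, of 7 sites at 82554470-82554580, lies 79.3 kb further along and had no peak within 1000 bp in either replicate. The nearest peak to it was 13.2 kb away in both. An open first and a closed last start site was the commonest pattern in the genome too, found in 52.2% of the 3756 genes with start sites over 10 kb apart. The upstream sites serve the longer Golli transcripts and the inner ones the classic myelin transcripts, as background from the mouse gene.

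Along the Mbp locus there were 22 distal peaks in replicate 1 and 9 in replicate 2, and all 9 were found in replicate 1. Of 12 distal regions in the body, 7 were found in both replicates, and of 6 upstream, 2. None of the 4 downstream regions was found in both. The 3 strongest lay in introns: 2.50 and 1.86 at 82526221-82526420, 2.52 and 1.73 at 82568941-82569140, and 1.56 and 1.81 at 82567801-82568000. The region 4.9 kb upstream of the first start site read 1.12 and 1.03 and held most footprints, 6 and 5. The 3 intronic regions were each stronger in both replicates than the promoter itself.

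Pmp22 (chr11:63128982-63159547, plus strand) had open chromatin at each of its 3 start-site clusters. The first, at 63128982, and the second, at 63131512, lay under a peak in both replicates. The third, of 2 sites at 63132569-63133068, lay under a peak in replicate 2. In replicate 1 the peak at 63132601-63133060 lay between these 2 sites. Signal was 2.13 and 1.47 at the first cluster, 2.26 and 2.42 at the second, and 2.26 and 2.69 at the third. The region of the third, 63132561-63133100, held 14 footprints in each replicate. The highest promoter value, 2.34 and 3.01, came from a region between the first and second cluster, at 63130601-63130840. The strongest region of the locus, however, was in an intron 2.7 kb past the last start-site cluster, with 6.46 and 7.26, percentiles 98.1 and 97.6, and 4 footprints in each replicate. Pmp22 had 15 distal peaks in replicate 1 and 8 in replicate 2.

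S100b (chr10:76253853-76261159, plus strand) had a weak promoter peak and a stronger intronic region 4.4 kb past its start site. That region read 0.995 and 1.10, with 4 footprints in each replicate. A further region just before it, at 4.0 kb, read 0.543 and 0.537. The locus had 5 distal peaks in replicate 1 and 23 in replicate 2. Of those 23, 17 formed a run over 8.0 kb of the neighbouring gene Prmt2, an arginine methyltransferase gene, at 76209521-76217520. Their signals ran from 0.0671 to 0.274, with a median of 0.123, the highest lay at percentile 8.15 of its replicate, and replicate 1 had 0 peaks there. The S100b count in replicate 2 therefore rested on these weak peaks.

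Cdh19 (chr1:110888326-110977584, minus strand) was the most closed of the 7 loci. It had no peak in replicate 1 and 1 in replicate 2, an 80 bp peak downstream of the gene with a signal of 0.190, 105.3 kb from its start site. No footprint lay in the locus in either replicate, and in replicate 1 the nearest peak to the start site was 174.1 kb away. A locus with no distal peak in replicate 1 and at most 1 in replicate 2 was found for 11.2% of all genes. Whether the gene is closed in Schwann cells too cannot be told apart from the small share of such cells.

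**Figure D2:**
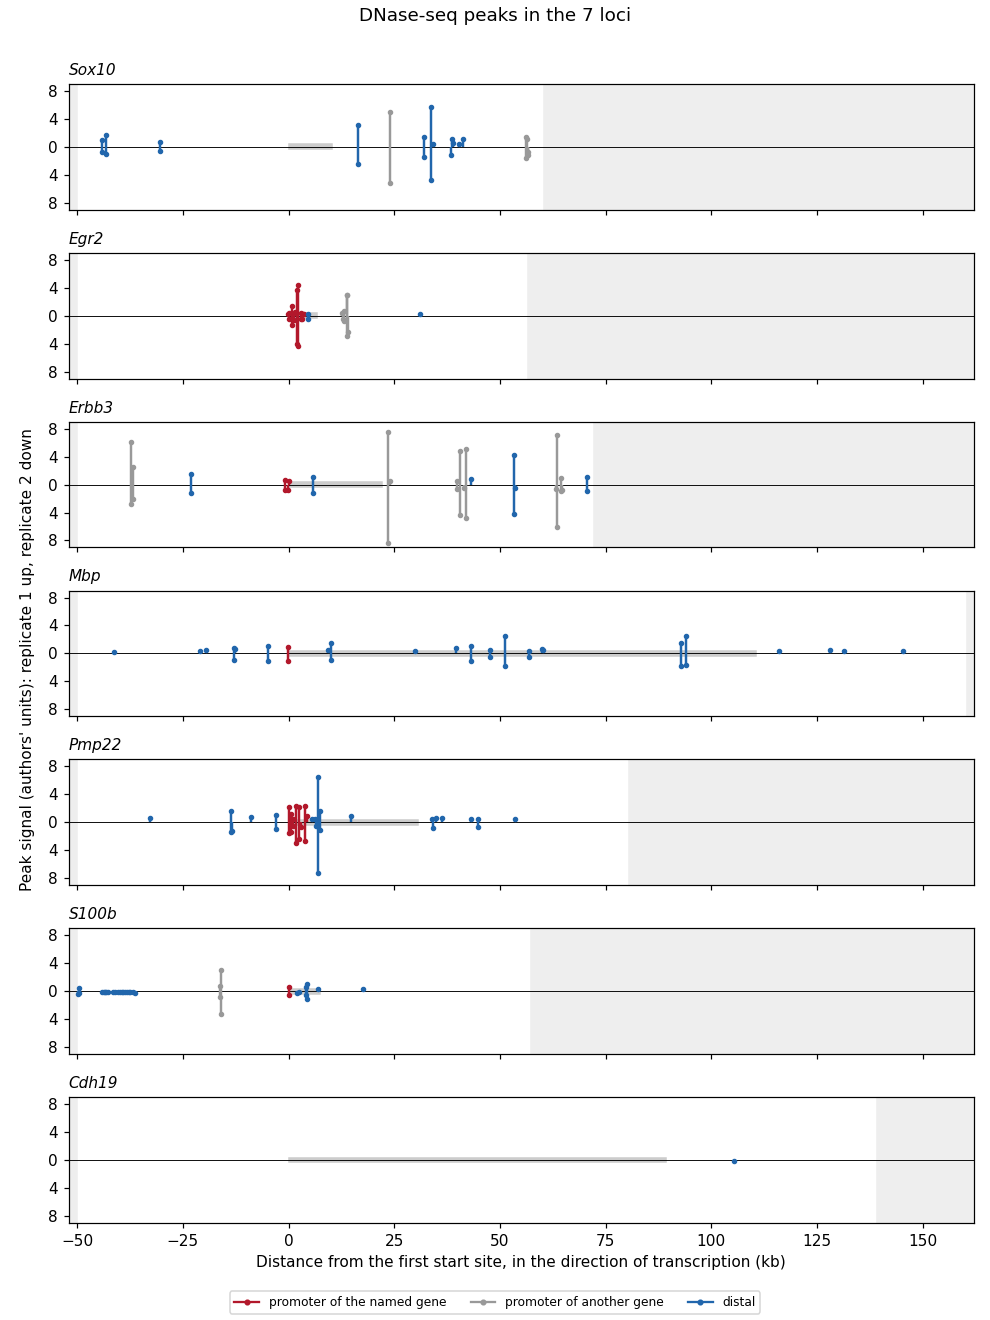
Peaks of the 7 loci by distance from the first start site in the direction of transcription (kb), with the authors' signal of replicate 1 upward and of replicate 2 downward. Red marks promoters of the named gene, grey promoters of other genes, blue distal peaks; the grey bar is the gene body and grey shading lies outside the locus. Egr2 is open at the promoter, Pmp22 at the promoter and in an intron (6.46 and 7.26), and Cdh19 has 1 weak peak.

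Set per length of locus, distal peaks were most dense at Pmp22 in replicate 1, at 1.15 per 10 kb, and at S100b in replicate 2, at 2.14 per 10 kb. The median over all genes was 0.481 and 0.292. Sox10 had 0.997 and 0.634, Mbp 1.05 and 0.428, Pmp22 1.15 and 0.613, Erbb3 0.409 and 0.409, S100b 0.466 and 2.14, Egr2 0.187 and 0.0937, and Cdh19 0 and 0.0528. Sox10, Mbp and Pmp22 were above the median in both replicates, and Egr2 and Cdh19 below it in both. Footprints were counted over the whole locus, promoters of neighbouring genes included. Per 10 kb they were most dense at Erbb3, with 5.65 in each replicate, against a median over all genes of 2.27 and 1.61. Pmp22 had 5.51 and 3.52, Egr2 3.84 and 3.75, Sox10 3.53 and 3.26, Mbp 2.99 and 1.66, S100b 1.40 and 2.05, and Cdh19 0 and 0. Egr2, below the median of all genes in distal peaks, was above it in footprints in both replicates, with those at promoters counted. The Ado promoter region in the Egr2 locus held 12 footprints in each replicate. In the Erbb3 locus the Pa2g4 promoter region held 8 and 9, and the distal region in the Erbb3 body 3 and 3. As counts, Pmp22 had 72 and 46 footprints, Erbb3 69 and 69, Mbp 63 and 35, Egr2 41 and 40, Sox10 39 and 36, and S100b 15 and 22. In total the 7 loci held 299 and 248 footprints, of which 259 and 221 lay inside a peak.

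**Figure D3:**
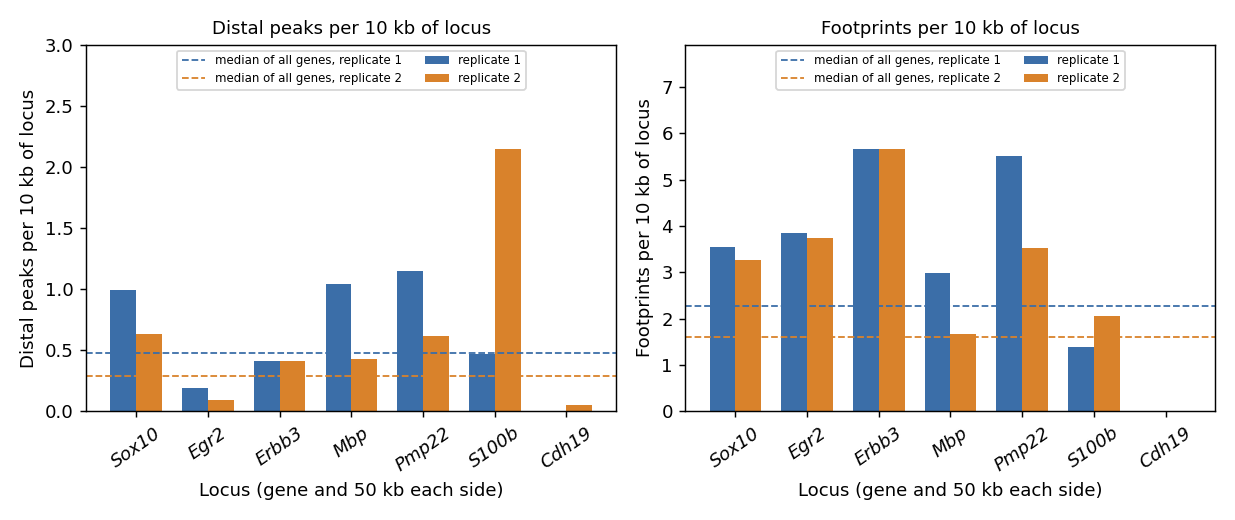
Distal peaks (left) and footprints (right) per 10 kb of each locus in replicate 1 (blue) and replicate 2 (orange), with dashed lines at the median of all genes. S100b is high in distal peaks in replicate 2 alone (2.14 against 0.466), and Cdh19 has no footprint.

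The 2 replicates were then set against each other peak by peak. Of the distal peaks in the 7 loci, 31 of 60 in replicate 1 (51.7%) overlapped a peak of replicate 2, against 52.8% over all distal peaks. For replicate 2 it was 33 of 54 (61.1%), against 81.7% over all. The 17 weak peaks over Prmt2 are among the 21 distal regions found in replicate 2 alone, which had a median percentile of 2.41. The 29 distal regions of replicate 1 alone had a median percentile of 39.0. Footprints were found in the other replicate in 145 of 299 cases in replicate 1 (48.5%, against 41.6% over all) and in 147 of 248 in replicate 2 (59.3%, against 61.5%).

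The distal peaks were searched on both strands for the letters that known factors of the lineage and of muscle bind. A match is a description of the sequence only. The SOX cores ACAAAG and ACAATG were found in 5 of 60 distal peaks of the 7 loci in replicate 1, 8.33% (95% exact binomial interval 2.76 to 18.4), against 19% of all distal peaks. In replicate 2 they were found in 11 of 54, 20.4% (10.6 to 33.5), against 17.6%. Of the 17 peaks over Prmt2, 4 held such a core. The intervals cover counting error only, and overlapping or neighbouring peaks of a locus are not independent. The TEAD word GGAATG was found in 8 and 5 peaks, 13.3% and 9.26%, against 12.8% and 11.9%. The AP-1 words TGACTCA and TGAGTCA were found in 6 and 4, 10.0% and 7.41%, against 8.03% and 7.08%. The E-box CAGCTG was found in 11 and 10, 18.3% and 18.5%, against 20.8% and 21.1%. The share over all distal peaks lay within the 95% interval of the 7 loci for each of these words in each replicate, except for SOX in replicate 1. There the share of 19% lay just above the upper limit of 18.4%. No allowance was made for the number of words read, so no difference is claimed from it.

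The EGR words GCGTGGGCG and GCGGGGGCG were found in 0 distal peaks of the 7 loci in either replicate, against 0.257% and 0.338% of all. The same held for the CRE word TGACGTCA, against 0.454% and 0.475%, for the MEF2 word, against 0.623% and 0.409%, and for the NFI word, against 0.0788% and 0.0784%. For 0 of 60 and 0 of 54 peaks, the 95% exact binomial interval reaches 5.96% and 6.60%. The CTCF consensus and the CArG box, the word bound by serum response factor, were added after the sequences had been read. The CTCF consensus was found in 5 and 3 distal peaks, 8.33% and 5.56%, against 5.4% and 6.57% of all. Regions that held it under a footprint of both replicates included the strongest distal region of Erbb3, an intronic region of Mbp and the far upstream region of S100b. This S100b region was weak, at 0.406 and 0.369, and the whole match lay within a peak in replicate 1 alone. The CArG box was in 0 distal peaks, against 0.994% and 0.882% of all. At Egr2 it was found in both of the strongest promoter regions, at chr10:67537494-67537503 and chr10:67537797-67537806, under a footprint in replicate 1 alone. Of the other words, 3 matches lay under a footprint of both replicates: TEAD in the strongest Sox10 region, the E-box in an Mbp intron and SOX at the Rps26 promoter in the Erbb3 locus.

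A wider list of 42 genes of the lineage gave the surroundings of the 7. Replicate 1 gave an open promoter at 26 of these and replicate 2 at 27. In both, 25 were open, and 14 were open in neither. The 25 of 42 lie near the 62.4% of all genes that were open in both. Among the 12 regulators 10 were open in both, led by Jun, a factor of Schwann cell injury repair (13.6 and 13.4), Yy1 (7.68 and 8.40) and Id2 (6.85 and 6.65). Pou3f2 had none. Among the 9 receptors and signals 6 were open in both, led by Dag1, which encodes dystroglycan (9.14 and 9.96), Notch1 (0.848 and 1.50) and Erbb2, the partner of ERBB3 (0.883 and 1.31). Ngfr and Gfra3 had none. Several of these genes, Jun, Yy1, Id2 and Dag1 among them, are used by muscle and other cells as well.

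Among the 15 genes of myelin proteins and myelin lipid enzymes 5 were open in both replicates and 9 in neither. Prx, which encodes periaxin, read 7.26 and 9.20. Cnp read 1.35 and 1.51. The closed ones included Mag, Gjb1, Pllp, Pmp2 and Cldn19. Among the 6 genes of immature and non-myelinating cells 4 were open in both, with Ncam1 at 1.09 and 1.27, Cdh2 at 0.589 and 0.744, and Scn7a at 0.594 and 0.559. Gfap, a marker of non-myelinating cells, and Gap43 had none.

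Other cell types of the tissue were read in the same way. Over all genes, 65.7% were open in replicate 1, 63.6% in replicate 2 and 62.4% in both. Each marker list holds only 5 or 6 genes, so its count is a coarse measure beside these shares. Muscle fibre markers were open in 6 of 6 genes in replicate 1 and 5 of 6 in replicate 2, at 1.38 to 6.06 and 2.39 to 6.47. The highest in each replicate was Actn3, under a peak that Zdhhc24 shares, and the next, Ckm, read 4.82 and 3.78. Fibroblast markers were open in 5 of 5 genes, at 0.305 to 4.54 and 0.330 to 4.47, and endothelial markers in 5 of 5, at 0.437 to 1.51 and 0.755 to 1.84. Macrophage markers were open in 3 of 5, at 0.335 to 0.731 and 0.470 to 1.12, and Csf1r and Ptprc had no promoter peak. Oligodendrocytes, which also make MBP, had 1 of 6 markers open, Olig1 at 0.579 and 0.682. Olig2, Mog, Mobp, Opalin and Ermn had no promoter peak. Of 5 melanocyte markers, which SOX10 also drives, 2 were open in both, 1 of them, Pmel, under a peak that Cdk2 shares, and Dct and Mlana had none. The part of these cells in the peaks of the 7 genes was not tested.

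**Figure D4:**
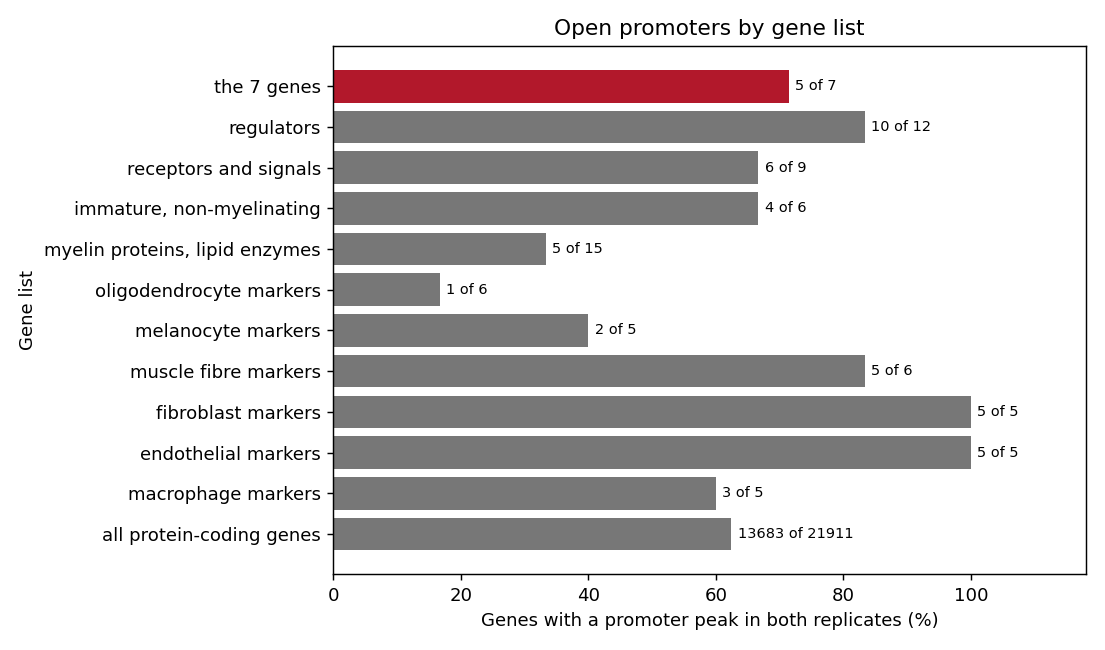
Share of genes with a promoter peak in both replicates in each list (%), with counts beside the bars. The 7 genes stand at 5 of 7, the myelin proteins and lipid enzymes at 5 of 15, and all protein-coding genes at 13683 of 21911.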

How the data were processed

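DNase-seq of gastrocnemius was deposited for 2 replicates. Per the file headers, the authors made the peak, false discovery rate and footprint lists per sample from filtered alignments to mm10; the aligner and peak caller are not given in the sources used here. The deposited peak signal (column 7) is the authors' value at the peak on an unstated scale; 2 lists per replicate were deposited, and the larger was used. The deposited p-value columns are the false discovery rate of the cut rate, listed under 0.05, and a constant footprint threshold of 0.01.

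Start sites came from protein-coding transcripts of GENCODE on the same build (GRCm38.p6). A promoter peak lay within 1000 bp of a start site, with an overlap of at least 1 bp. Distances run from the nearest start site of the gene. Percentiles rank signal within a replicate, since its scale may differ between them. The overlap and motif steps were tested on simulated data. Python 3.11.15, pandas 2.3.3, scipy 1.17.1 and pysam 0.24.0 were used. Values are for each replicate, and no significance test was run, as there is 1 group. Named regions and genes were the 7 genes, the strongest distal region of each locus and the one with most footprints, and in each group of the wider list the 3 highest promoters and up to 5 with no peak. Some items that this rule names are not reported here. The 7 genes and all lists were chosen with earlier results of these data known. Other windows, flanks, peak lists and motif settings were tried. Depth is unknown, which limits the precision of every count.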

Additional observations from a re-analysis of the deposited data

How the results depend on the processing

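No paired analysis was possible because there is 1 group only. Promoter peaks at 5 of the 7 genes in both replicates stayed between 4 and 5 under every alternative tried. Open genes of the wider list fell to 16 of 42, against 25, with the better 50% of the peaks by signal. Distal regions found in both replicates numbered 31 with a flank of 50 kb, 18 with 10 kb and 50 with 100 kb. Single replicates alone gave 54 to 60 distal peaks, a count with no requirement of overlap. Footprints averaged 273.5, and 157.5 with a flank of 10 kb or 153.5 when only those with the gene's own start site nearest were kept. These settings narrow or widen what is counted by construction. Among values of single genes, promoter signal was tried in 30 cases that kept both replicates: it moved by more than the spread between replicates in 3, and in 2 the S100b promoter peak was lost in replicate 2 (the stricter list and the better 50% of the peaks). The distal count of a locus moved by over 1.5 times in 31 of 63. With the start site of Egr2 taken as the first alone, its promoter signal was 1.42, and for Pmp22 it was 1.80. Under that setting Pmp22 ranked above Egr2. When peaks at or under percentile 10 were left out, an alternative chosen after seeing the data, S100b had 4.5 distal peaks at the mean, against 14.0. The share of distal peaks with a SOX core, 14.4% at the mean of the replicates and 8.33% and 20.4% in each, was 13.1% under that alternative, 7.22% with ACAAAG alone and 16.8% within 100 bp of the peak middle. The signal scale is unstated, and the number of peaks differed by library.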
